A study of Mus musculus with 20 samples.

Results

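Dppa2, Dppa3 and Dppa4 are 3 of the 18194 genes measured on the 20 mouse arrays of this study, and 4 of the 45101 probe sets. The members were every probe set whose platform gene symbol is 1 of these names. Dppa2 had 2 probe sets, 1453223_s_at and 1429654_at, Dppa3 had 1424295_at and Dppa4 had 1429597_at. The brighter Dppa2 probe set, 1453223_s_at, stands for the gene unless the other is named. In the mouse gene table of the assembly GRCm38.p6 all 3 are protein coding. Dppa2 and Dppa4 lie next to each other on chromosome 16 with Morc1 as the following gene, and Dppa3 lies on chromosome 6 between Gdf3 and Nanog.

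The study asked what the transcription factor Gata4 does in cells with and without de novo DNA methylation. The mutant cells (DKO) were mouse ES cells of the J1 129sv/Jae line lacking the de novo methyltransferases Dnmt3a and Dnmt3b, and the wild-type cells (WT) were J1 ES cells. Both carried Gata4GR, Gata4 joined to the hormone-binding part of the glucocorticoid receptor, which is driven by the CAG promoter and switched on with dexamethasone (Dex). The DKO clone was 16G4.3 and the WT clone J1G4.2, 1 clone per genotype, so genotype and clone cannot be told apart. Each genotype was measured in 5 states with 2 arrays each. ES cells were undifferentiated. Primitive endoderm (PE) came from ES cells given 100 nM Dex for 4 days. Flk1+ mesoderm cells were sorted as positive for both Flk1 and PDGFRα after 4 days on type IV collagen. The mesoderm was then kept for 4 more days without Dex (Dex- cells) or with 100 nM Dex (Dex+ cells). In the Flk1+ groups the array of replicate 1 came from the parental line without Gata4GR in each genotype, and that of replicate 2 from the clone. By the labels both arrays of a pair are biological replicates, by the methods from independent experiments, and p-values measure only the spread within such pairs. In the Flk1+ groups that spread includes the difference between the parental line and the clone.

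Dppa2 and Dppa4 are nuclear proteins with a SAP domain, a fold that binds DNA, and they act together as a dimer. In mouse ES cells they sit on CpG-rich promoters, keep them open to later activation, and act upstream of Dux and the Zscan4 genes of the cleavage-stage embryo. Both are normally restricted to early embryos, pluripotent cells and the germ line. Dppa3, also called Stella or PGC7, is a maternal factor of the egg and an early marker of primordial germ cells, and it holds back Uhrf1, the protein that brings the maintenance methyltransferase Dnmt1 to DNA.

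The targeted genes read lower in DKO than in WT ES cells. Dnmt3b read 8.97 and 8.88 (log2) in the 2 DKO ES arrays, against 13.06 and 12.63 in WT. Dnmt3a read 6.22 and 6.33 in DKO, against 9.44 and 9.34 in WT. The gap was smaller in Dex+ cells. There Dnmt3b read 6.20 and 6.11 in DKO against 6.82 and 7.10 in WT, and Dnmt3a 6.51 and 6.83 against 7.47 and 7.46. The arrays of a pair correlated at 0.979 to 0.996 over all genes, with the lowest r in the WT Flk1+ pair, where 880 genes were at least 2-fold apart. The median of all probe sets lay between 5.79 and 5.87 on every array. The marker lists matched the labelled states. The 9 measured nascent mesoderm markers averaged 10.7 and 10.5 in DKO Flk1+ cells and 10.6 and 10.8 in WT, against 5.66 to 5.99 in ES cells of both genotypes. The 12 primitive endoderm markers averaged 12.7 in both DKO PE arrays and 12.5 and 12.4 in WT PE.

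All values here are log2 of the authors' RMA signal, on which 1 unit is a 2-fold difference. Differences are from a single linear model over the 20 arrays, given with their standard error (SE), with Benjamini-Hochberg adjustment over the 18194 genes, and a gene passed at an adjusted p below 0.05 with a difference of at least 2-fold. The 3 genes share no probe design, so their levels are not set against each other.

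Dppa2 was high in ES cells of both genotypes and lowest in WT cells derived from mesoderm. In ES cells it read 12.31 and 12.11 in DKO, against 12.22 and 12.12 in WT. In PE it read 8.25 and 7.67 in DKO, against 9.66 and 9.56 in WT. The ES arrays of the genotypes overlapped, and in PE both DKO arrays lay below both WT arrays. In Flk1+ mesoderm it read 6.55 and 7.76 in DKO, against 6.88 and 4.04 in WT. In Dex- cells it read 8.85 and 8.93 in DKO, against 3.70 and 4.58 in WT. In Dex+ cells it read 7.86 and 7.53 in DKO, against 4.08 and 3.86 in WT. The genotypes overlapped in Flk1+ cells and were far apart in both mesoderm cultures, where the WT arrays lay among the lowest 27.2% of all probe sets and the DKO arrays above at least 71.5% of them.

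Dppa4 followed the same course. In ES cells it read 12.11 and 11.75 in DKO, against 12.22 and 12.11 in WT. In PE it read 8.96 and 8.72 in DKO, against 9.91 and 9.89 in WT. Again the ES values lay close together and both DKO arrays of PE lay below both WT arrays. In Flk1+ mesoderm it read 8.17 and 7.91 in DKO, against 9.24 and 6.31 in WT. In Dex- cells it read 10.03 and 10.25 in DKO, against 7.27 and 6.61 in WT. In Dex+ cells it read 9.09 and 8.75 in DKO, against 6.50 and 6.30 in WT. The WT Flk1+ arrays lay on either side of the DKO pair, and in both cultures the lowest DKO array lay above the highest WT array.

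Dppa3 was high in ES cells and near the middle of the array elsewhere. It read 9.25 and 10.05 in DKO ES cells, against 8.63 and 8.78 in WT ES cells, so the lower DKO array was above both WT arrays. In the 16 arrays of the other states it lay between 5.65 and 6.47, with a median of 6.02, higher than 46.3% to 60.0% of all probe sets of the same array. No detection limit was set, and values in this range are close to the array medians.

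**Figure D1:**
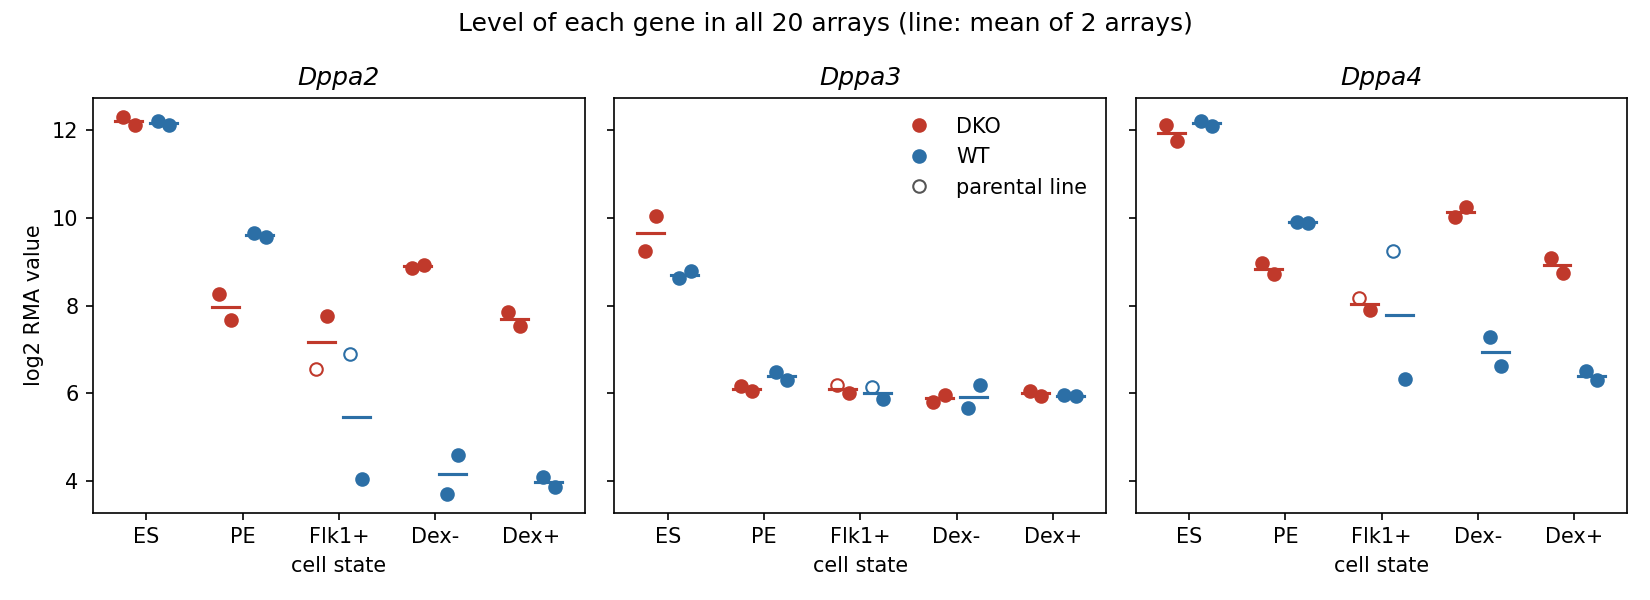
Log2 RMA value of Dppa2, Dppa3 and Dppa4 (vertical axis) on each of the 20 arrays in the 5 states (horizontal axis), DKO left and WT right, with the mean of each pair as a line and the Flk1+ arrays of the parental lines as open circles. Dppa2 and Dppa4 are apart between the genotypes in Dex- and Dex+ cells, while Dppa3 lies between 5.65 and 6.47 outside ES cells.

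By group mean, Dppa2 came in the order DKO ES, WT ES, WT PE, DKO Dex-, DKO PE, DKO Dex+, DKO Flk1+, WT Flk1+, WT Dex- and WT Dex+, with means of 12.21, 12.17, 9.61, 8.89, 7.96, 7.70, 7.16, 5.46, 4.14 and 3.97. The arrays of neighbouring groups did not overlap from WT ES down to DKO PE, and every later neighbour overlapped the next. For Dppa4 the order was WT ES, DKO ES, DKO Dex-, WT PE, DKO Dex+, DKO PE, DKO Flk1+, WT Flk1+, WT Dex- and WT Dex+, with means of 12.17, 11.93, 10.14, 9.90, 8.92, 8.84, 8.04, 7.78, 6.94 and 6.40. The Dppa4 pairs that overlapped their next neighbour were WT ES, DKO Dex+, DKO Flk1+ and WT Flk1+. DKO Dex- cells thus stood near the top of both orders, and WT Dex- cells next to last in both. For Dppa3, DKO ES (9.65), WT ES (8.70) and WT PE (6.39) were each apart from the next group, and the other 7 means lay between 5.88 and 6.10 with each overlapping its neighbour.

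In ES cells none of the 3 genes passed between DKO and WT, where 1.39% of all genes passed. The difference was 0.05 ± 0.62 for Dppa2 (95% interval -1.28 to 1.37) and -0.24 ± 0.58 for Dppa4 (-1.48 to 1.00). For Dppa3 it was 0.95 ± 0.22 (limma, adjusted p = 0.0351), which is 1.93-fold and so short of the 2-fold limit. Without DKO ES replicate 1 the Dppa3 difference was 1.35 (adjusted p = 0.00356), which passed, and without DKO ES replicate 2 it was 0.55 (adjusted p = 0.415). Here as elsewhere the SE of a gene is the same for all comparisons of 2 groups, because the model pools the spread over the 10 groups, and for Dppa2 and Dppa4 much of that spread is between the 2 WT Flk1+ arrays, with SDs of 2.01 and 2.07.

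In PE, DKO minus WT was -1.65 ± 0.62 for Dppa2 and -1.06 ± 0.58 for Dppa4, and neither passed (adjusted p = 0.214 and 0.511), beside 1.96% of all genes. Within the first scan day that held PE arrays of both genotypes the Dppa2 difference was -1.41 and within the second -1.89. The corresponding Dppa4 differences were -0.95 and -1.17. On the other Dppa2 probe set, 1429654_at, the difference of -1.55 ± 0.30 passed (adjusted p = 0.0136), with 7.31 and 6.80 in DKO PE against 8.56 and 8.66 in WT PE. Dppa3 differed by -0.29 ± 0.22 (adjusted p = 0.728). Of 21 other genes of the pluripotent state, 9 passed as lower in DKO PE and 0 as higher, with a list median of -0.92 against -0.01 for all genes, and Morc1 read 5.45 and 5.13 in DKO against 7.23 and 7.22 in WT (-1.94 ± 0.45, adjusted p = 0.0249).

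In Flk1+ mesoderm none of the 3 genes passed, beside 0.698% of all genes. The difference was 1.69 ± 0.62 for Dppa2 (adjusted p = 0.236), 0.26 ± 0.58 for Dppa4 (0.913) and 0.08 ± 0.22 for Dppa3 (0.928). The result for Dppa2 and Dppa4 rests on which WT array is read. Between the 2 parental-line arrays, which share a scan day, the difference was -0.33 for Dppa2 and -1.08 for Dppa4. Between the 2 arrays of the Gata4GR clones, which share another, it was 3.72 and 1.59. Without both parental arrays these differences passed (adjusted p = 3.08e-05 for Dppa2 and 0.00645 for Dppa4). Without WT Flk1+ replicate 1 alone they were 3.11 and 1.72 and passed, and without WT Flk1+ replicate 2 that of Dppa4 was -1.21 and in the other direction (adjusted p = 0.02). The parental WT array also read higher for genes of the pluripotent state, with Sox2 at 9.11 against 6.22 in the clone and Zfp42 at 8.87 against 6.75, although Pou5f1 read 8.42 against 8.82. The 21 genes of the list averaged 8.30 and 8.59 in the DKO arrays, against 8.80 and 8.16 in the WT arrays. Line, Gata4GR, scan day and chip lot move together in these 4 arrays and cannot be told apart.

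In Dex- cells Dppa2 and Dppa4 were the 2 members that passed, both higher in DKO, where 5.84% of all genes passed. Dppa2 was 4.75 ± 0.62 log2 units higher in DKO (26.9-fold, 95% interval 3.43 to 6.07, limma, adjusted p = 0.000122), and Dppa4 was 3.20 ± 0.58 higher (9.18-fold, 1.96 to 4.44, adjusted p = 0.00186). Dppa3 differed by -0.03 ± 0.22 (-0.50 to 0.44), an interval that leaves no room for a 2-fold difference in its signal. Within each of the 2 scan days the Dppa2 difference was 4.35 and 5.15, and the Dppa4 difference 3.64 and 2.75. The Dppa2 and Dppa4 calls held under every alternative run, the removal of any 1 array included. A permutation of 2 against 2 arrays cannot give a two-sided p below 0.333, so the exact test over arrays is of no use here.

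In Dex+ cells the same 2 members passed, both higher in DKO, beside 9.65% of all genes. Dppa2 was 3.73 ± 0.62 higher in DKO (13.3-fold, 2.40 to 5.05, limma, adjusted p = 0.000531) and Dppa4 2.52 ± 0.58 higher (5.72-fold, 1.28 to 3.76, adjusted p = 0.0061). Dppa3 differed by 0.05 ± 0.22 (-0.42 to 0.52). All 4 Dex+ arrays share a scan day. In bulk RNA, more cells with a gene on and more RNA per cell cannot be told apart. Because the values have no true zero and WT arrays of Dppa2 lie near the bottom of the scale, the fold sizes are those of the RMA signal.

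**Figure D2:**
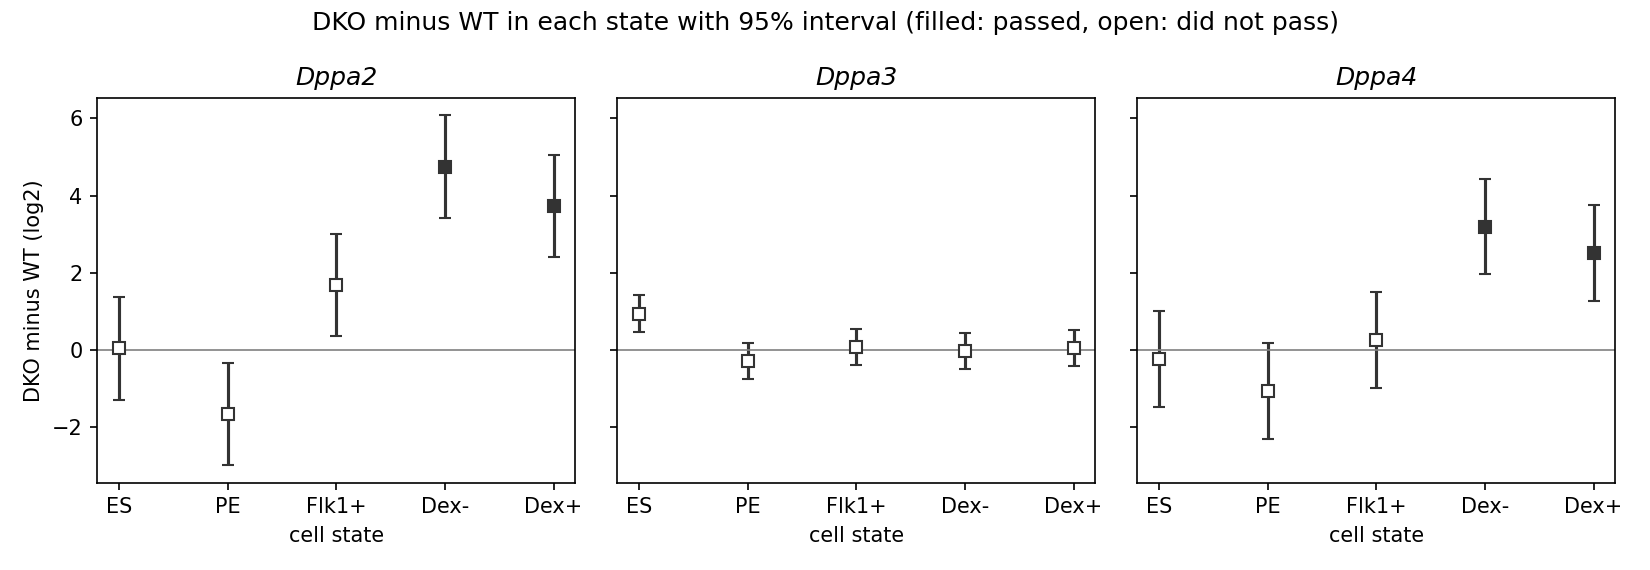
DKO minus WT in log2 units (vertical axis) for each gene in the 5 states (horizontal axis), with the 95% interval of the model. Filled squares passed and open squares did not. Dppa2 and Dppa4 pass in Dex- and Dex+ cells, by 2.52 to 4.75, and Dppa3 in none of the states.

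The genotype difference itself was compared between states in the same model, a test added after the values were known. For Dppa2 the difference in Dex- cells exceeded that in ES cells by 4.71 ± 0.88 (limma, adjusted p = 0.00494, beside 4.53% of all genes) and the one in Dex+ cells exceeded that in ES cells by 3.68 ± 0.88 (adjusted p = 0.0126, beside 9.00%). In PE itself DKO read lower than WT, by a difference that did not pass. Against PE the excess was 6.40 ± 0.88 for Dex- cells (limma, adjusted p = 0.000452, beside 4.01%). For Dex+ cells it was 5.38 ± 0.88 (adjusted p = 0.00117, beside 6.80%). Dppa4 passed the same 4 tests, by 3.44, 2.75, 4.26 and 3.57 in that order. Its calls against ES cells had an adjusted p of 0.0426 for Dex+ cells and 0.0232 for Dex- cells (limma). With 1 of the 8 arrays left out, the Dex+ value ran from 2.57 to 2.94 and the Dex- value from 3.11 to 3.77. Each such fit leaves 1 array in a group, and the Dex+ call was lost without any 1 of the 8 arrays. The Dex- call was lost without 7 of 8, each array in turn. The Dppa4 call for Dex+ cells against PE (adjusted p = 0.0131) was lost without DKO PE replicate 2 (0.0528) or DKO Dex+ replicate 1 (0.0515). Dppa3 passed none of the 4.

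Between states, all 3 genes fell on differentiation of ES cells to PE. In DKO the change was -4.25 for Dppa2, -3.08 for Dppa4 and -3.55 for Dppa3, beside 16.3% of all genes that passed. In WT it was -2.55 for Dppa2, -2.27 for Dppa4 and -2.31 for Dppa3, beside 14.2%. The DKO change minus the WT change was -1.70 ± 0.88, -0.82 ± 0.82 and -1.24 ± 0.31, and none of these differences passed (adjusted p = 0.664, 0.953 and 0.0756, beside 1.36% of all genes). All 3 also fell in Flk1+ mesoderm relative to ES cells. In DKO the change was -5.05 for Dppa2, -3.89 for Dppa4 and -3.56 for Dppa3 (beside 10.2% of all genes), and in WT it was -6.70, -4.39 and -2.70 (beside 12.5%). The difference of this step between the genotypes passed for none of the 3, beside 0.791% of all genes. All ES arrays were scanned on a day that held no other state. In the changes from ES cells to PE and to Flk1+ cells, state and scan day therefore cannot be told apart.

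From Flk1+ mesoderm to Dex- cells Dppa2 and Dppa4 passed in DKO. There Dppa4 rose by 2.10 ± 0.58 (4.29-fold, adjusted p = 0.011) and Dppa2 by 1.74 ± 0.62 (3.33-fold, adjusted p = 0.0438), beside 16.6% of all genes. Within the only scan day that held both states, DKO Dppa2 was 2.30 and DKO Dppa4 1.86 higher in Dex- cells. The Flk1+ array of that day came from the parental line and the Dex- array from the clone, on different chip lots. The Dppa2 call was lost with scan day as a block (1.63, adjusted p = 0.1), with an intensity trend (adjusted p = 0.0567), and without DKO Flk1+ replicate 1 (1.13, adjusted p = 0.303) or either DKO Dex- array (adjusted p = 0.131 and 0.14). The Dppa4 call was lost without DKO Flk1+ replicate 2 (adjusted p = 0.0575) or DKO Dex- replicate 2 (0.0639). In WT the step was -1.32 ± 0.62 for Dppa2 and -0.84 ± 0.58 for Dppa4, neither of which passed (adjusted p = 0.136 and 0.336, beside 15.3% of all genes). Without the parental WT array these values were 0.10 and 0.63, and without the clone's Flk1+ array -2.74 and -2.30, which passed (adjusted p = 0.000165 and 1.2e-05). The step differed between DKO and WT by 3.06 ± 0.88 for Dppa2 and 2.94 ± 0.82 for Dppa4, short of the threshold after adjustment (adjusted p = 0.0779 and 0.069, beside 2.91% of all genes). The Dppa4 value passed with scan day as a block (adjusted p = 0.0312), with the replicate block (adjusted p = 0.0431) and without either WT Flk1+ array, as 1.48 without replicate 1 (adjusted p = 0.0174) and 4.41 without replicate 2 (adjusted p = 3.08e-06). The Dppa2 value was 4.48 without WT Flk1+ replicate 2 and 3.66 without DKO Flk1+ replicate 2. It was 1.64 without WT Flk1+ replicate 1 and 1.03 without both parental-line Flk1+ arrays.

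Dex during mesoderm culture gave no call for the 3 genes in either genotype, against 9.63% of all genes in DKO and 1.60% in WT. In DKO the Dex+ minus Dex- difference was -1.19 ± 0.62 for Dppa2 and -1.22 ± 0.58 for Dppa4 (adjusted p = 0.232 and 0.184). Both Dex+ arrays lay below both Dex- arrays for each gene. Fitted on only the arrays of these DKO groups, both differences passed (limma, adjusted p = 0.00134 for Dppa2 and 0.00156 for Dppa4). In WT the differences were -0.17 ± 0.62 and -0.54 ± 0.58. The difference between the genotypes in this step passed for none of the 3, beside 5.86% of all genes. Dex+ cells were also set against PE, the other Gata4GR-activated state. In DKO no member passed, beside 4.47% of all genes, with -0.26 ± 0.62 for Dppa2 and 0.07 ± 0.58 for Dppa4. In WT both were lower in Dex+ cells than in PE, with -5.64 ± 0.62 for Dppa2 (adjusted p = 8.06e-06) and -3.50 ± 0.58 for Dppa4 (adjusted p = 0.000346), beside 12.3% of all genes. Dppa3 passed in neither genotype.

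**Figure D3:**
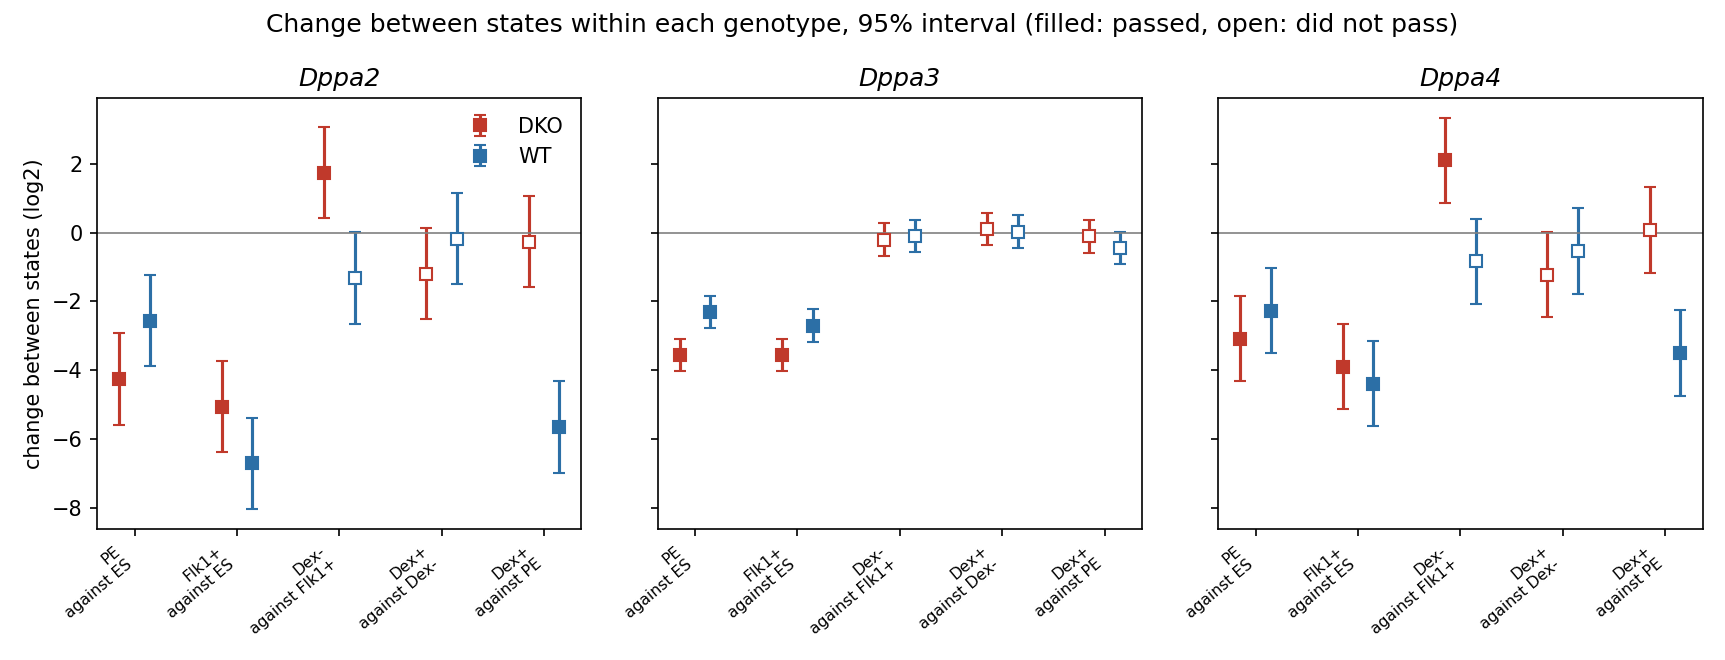
Change between states in log2 units (vertical axis) for 5 pairs of states (horizontal axis), DKO left and WT right, with 95% intervals. Filled squares passed and open squares did not. Dppa2 and Dppa4 lie above 0 from Flk1+ to Dex- in DKO, by 1.74 and 2.10, and below 0 from PE to Dex+ in WT, by -5.64 and -3.50.

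The 2 Dppa2 probe sets correlated at 0.968 over the 20 arrays, with smaller differences between the genotypes in Dex- and Dex+ cells on 1429654_at. There Dex- cells read 7.59 and 7.45 in DKO against 4.62 and 4.70 in WT, a difference of 2.86 ± 0.30 (adjusted p = 3.56e-05). Dex+ cells read 6.69 and 6.63 in DKO against 4.90 and 5.05 in WT, a difference of 1.69 ± 0.30 (adjusted p = 0.00157). The parental and the clone arrays of WT Flk1+ cells stood apart here too, with 5.71 and 4.70, though by less than the 6.88 and 4.04 of the other probe set. On this probe set, and on the mean of both, the difference between the genotypes in the step from Flk1+ to Dex- passed, with 2.00 (adjusted p = 0.0257) and 2.53 (adjusted p = 0.0405).

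Among the 8625 genes with a named symbol and a group mean of at least 8, the 5 with the highest correlation to each member over the 20 arrays were listed. These correlations rest on the same 10 groups and are descriptions. The genes were chosen by likeness on these arrays. Their own differences between groups therefore follow partly from the choice and give no separate support. For Dppa2 they were Rnf17 (r = 0.96), Morc1 (0.945), Cbx7 (0.945), Wdr76 (0.941) and Brf2 (0.929). For Dppa4 they were Cbx7 (0.965), Morc1 (0.958), Rnf17 (0.938), Brf2 (0.921) and Gcnt2 (0.918). Dppa2 and Dppa4 correlated at 0.973 with each other, and each at under 0.78 with Dppa3 (0.779 and 0.774). Morc1, a germ cell ATPase that silences transposons, is also the gene next to the pair. It read 8.30 and 8.80 in DKO Dex- cells against 3.33 and 3.39 in WT (5.19 ± 0.45). In Dex+ cells it read 7.97 and 7.80 in DKO against 3.42 and 3.60 in WT (4.38 ± 0.45). Cbx7, a chromobox protein of Polycomb complexes, read 8.69 and 8.82 in DKO Dex- cells against 6.24 and 6.30 in WT (2.48 ± 0.29), and Rnf17, a Tudor-domain protein of male germ cells, 7.61 and 7.36 against 4.27 and 3.93 (3.38 ± 0.37). All 3 also read higher in DKO than in WT Dex+ cells.

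For Dppa3 the 5 genes were Pla2g10 (r = 0.979), Aire (0.977), Khdc3 (0.974), Pmel (0.97) and Dtx1 (0.97). Each was highest in ES cells and lower elsewhere, and none passed between DKO and WT in any of the 5 states. Khdc3, a part of the maternal complex beneath the egg membrane, read 8.49 and 8.51 in DKO ES cells and 8.45 and 8.10 in WT ES cells, and between 5.75 and 6.35 in the other arrays.

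**Figure D4:**
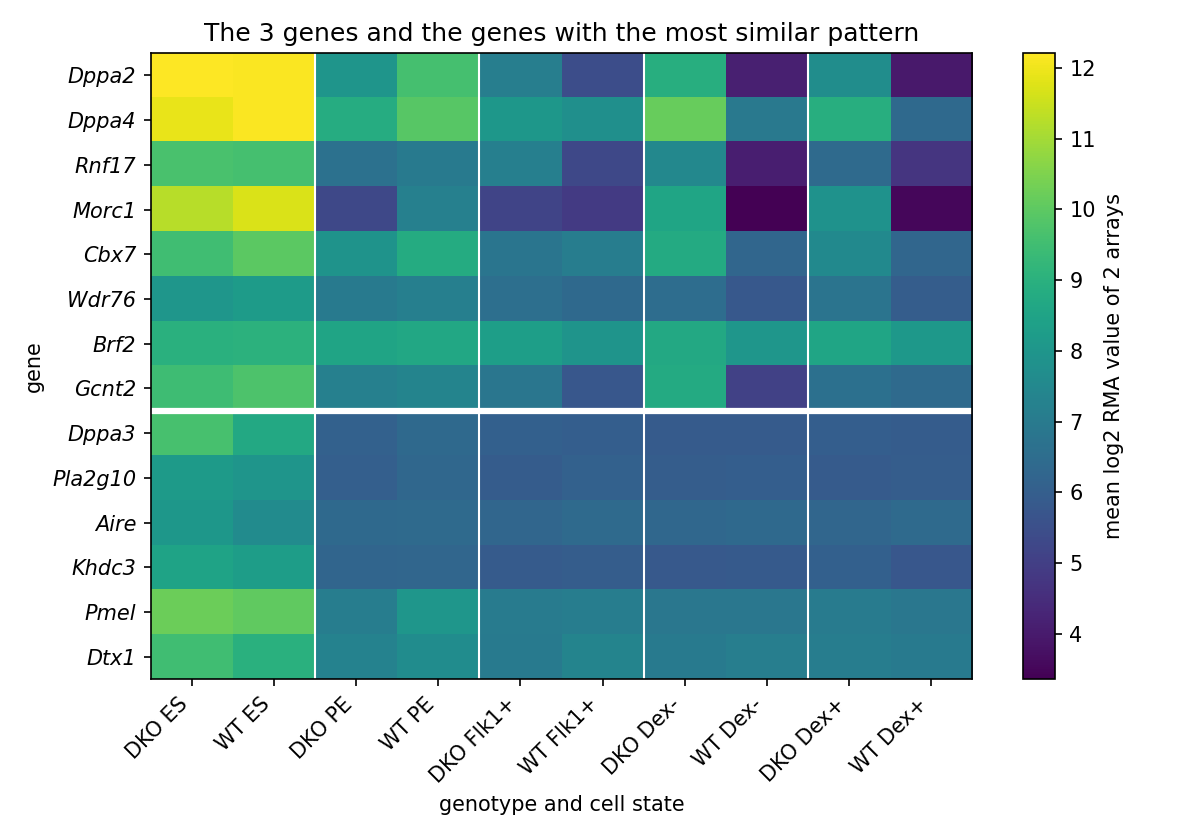
Mean log2 RMA value of 2 arrays (colour) in the 10 groups (columns, DKO left of WT in each state) for Dppa2 and Dppa4 with the genes most like them (upper block) and Dppa3 with the genes most like it (lower block). The genes beside the members were chosen for their likeness on these same arrays. The upper block is brighter in DKO than in WT Dex- cells, with Morc1 at 8.30 and 8.80 against 3.33 and 3.39. The lower block is bright in ES cells.

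Of the 12 nearest protein coding neighbours of the 2 loci, 9 were measured. Around Dppa2 and Dppa4, Morc1 was the only one to pass as higher in DKO Dex- or Dex+ cells. Nectin3, a cell adhesion protein on the other side, read 10.41 and 10.18 in DKO Dex- cells against 10.08 and 10.39 in WT, and was lower in DKO Dex+ cells (-1.72 ± 0.18, adjusted p = 7.67e-06). Trat1 and Retnlb, which lie beyond Morc1, stayed between 4.29 and 5.08 on all 20 arrays. Around Dppa3, Gdf3 and Nanog had the ES-high course (r = 0.956 and 0.855), and both were lower in DKO than in WT PE (-1.83 ± 0.19 and -2.32 ± 0.41, both passed), while Dppa3 read 6.16 and 6.04 in DKO PE against 6.47 and 6.31 in WT and did not pass. Slc2a3 and Foxj2 did not pass in any of the 5 DKO and WT comparisons.

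Genes that work with the 3 were counted from lists, which were drawn up with results of these data known. The first list held cleavage-stage genes, which Dppa2 and Dppa4 help to switch on in mouse ES cells. Of 12 listed, 6 were measured. 3 of these passed as higher in DKO ES cells, beside 1.12% of all genes, and 0 passed in each of the other 4 states. Dppa2 and Dppa4 did not pass in ES cells. Usp17la, a deubiquitinase gene of that stage, read 10.48 and 9.27 in DKO ES cells against 6.56 and 4.99 in WT (4.10 ± 0.42, adjusted p = 4.5e-05), and Zfp352 read 8.85 and 8.16 against 6.20 and 6.11 (2.35 ± 0.20, adjusted p = 7.54e-06). In DKO Dex- cells, where the pair was higher than in WT, Usp17la read 4.84 and 4.62 against 4.56 and 4.18 in WT (0.36 ± 0.42) and Zfp352 read 6.62 and 6.33 against 6.55 and 6.37 (0.01 ± 0.20). Duxf3, the entry for Dux, stayed between 3.73 and 4.27 on all 20 arrays, near the bottom of the scale. At that level its flat values cannot show whether Dux changed. The Zscan4 genes were not analysed here, and a link between the pair and the cleavage-stage genes was not tested.

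Of the 17 measured germline genes, at least 8 passed as higher in DKO in each state and 0 as lower. The counts were 11 in ES cells, 8 in PE, 8 in Flk1+ mesoderm, 12 in Dex- cells and 9 in Dex+ cells. Over all genes 1.12%, 1.13%, 0.396%, 3.51% and 4.81% passed as higher, in the same order. The list medians were 1.09, 0.61, 1.10, 2.60 and 1.23, where the median over all genes lay between -0.03 and 0.00. The largest differences in Dex- cells were those of Tex19.1 (6.77 ± 0.43), Asz1 (5.53 ± 0.28), Slc25a31 (5.24 ± 0.34), Ddx4 (5.22 ± 0.26), Dazl (4.55 ± 0.45) and Stk31 (4.51 ± 0.18). Tex19.1 and Asz1 act in transposon control in germ cells, Ddx4 and Dazl are RNA regulators that mark them, and Slc25a31 is a germ cell ADP/ATP carrier. The Dex- differences of Dppa2 and Dppa4, 4.75 and 3.20, lay above the median of this list, while in ES cells and PE the pair had no such excess. Asz1 for example read 7.11 and 7.25 in DKO ES cells against 4.48 and 4.25 in WT (2.82 ± 0.28), and 9.62 and 9.36 in DKO PE against 4.42 and 4.37 in WT (5.09 ± 0.28), both passed.

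**Figure D5:**
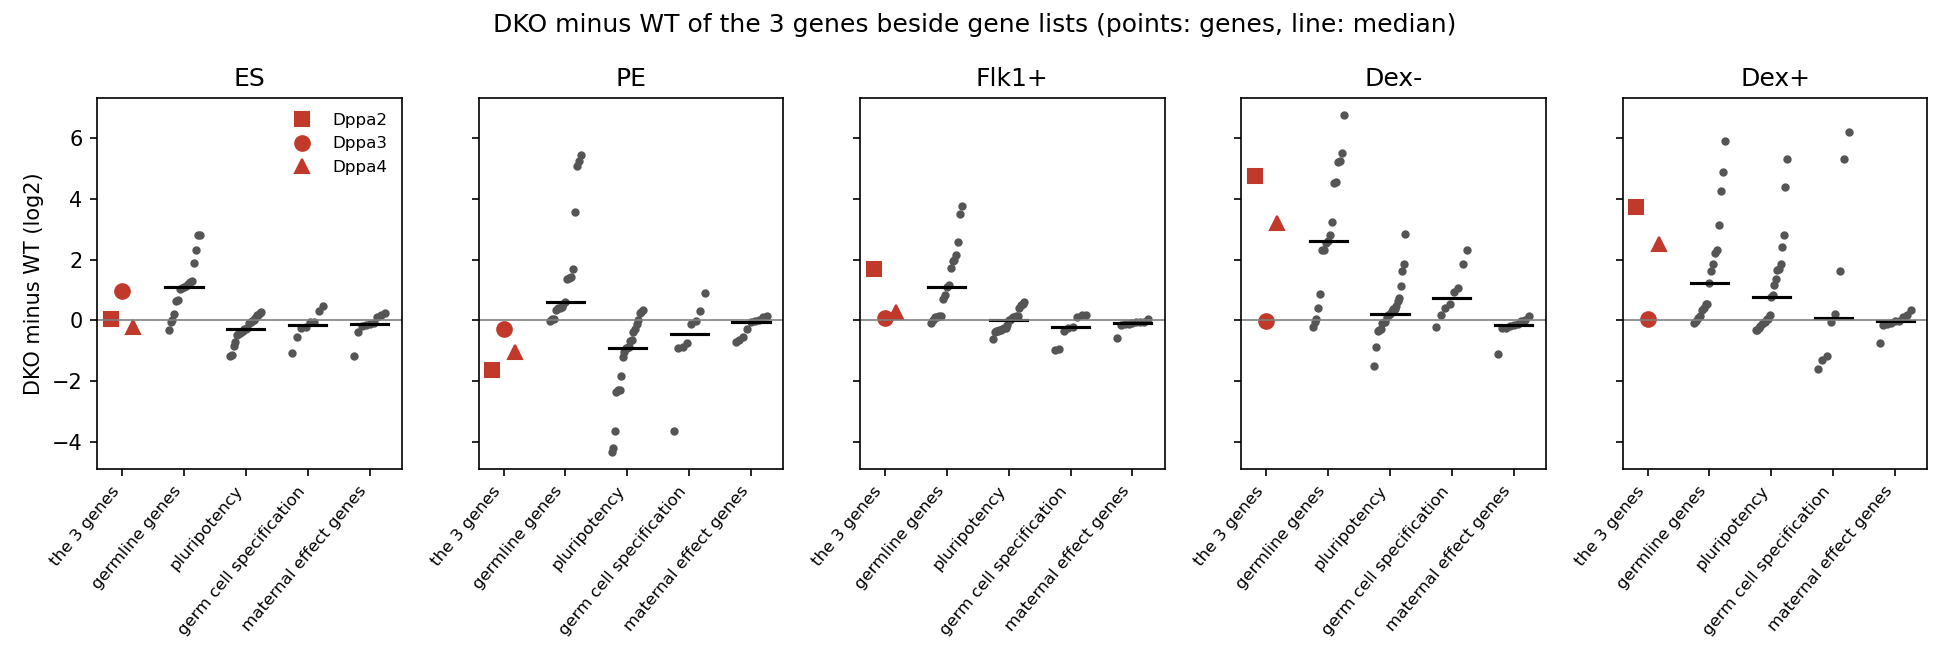
DKO minus WT in log2 units (vertical axis) in each of the 5 states (panels) for Dppa2, Dppa3 and Dppa4 and for the measured genes of 4 lists (horizontal axis), with each list's median as a line. Dppa2 and Dppa4 lie at 4.75 and 3.20 in Dex- cells, above the germline median of 2.60, and at 0.05 and -0.24 in ES cells, below the germline median of 1.09.

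Among 8 measured germ cell specification genes, 3 passed as higher in DKO Dex- cells and 0 as lower, beside 3.51% higher and 2.34% lower over all genes. In Dex+ cells 3 passed as higher and 3 as lower, beside 4.81% and 4.83%. The largest difference of the list was that of Kit, the stem cell factor receptor of germ cells, which read 11.01 and 11.65 in DKO Dex+ cells against 4.91 and 5.33 in WT (6.21 ± 0.30). Tfap2c, a transcription factor of primordial germ cells, read 7.95 and 8.43 in DKO Dex- cells against 5.66 and 6.07 in WT (2.32 ± 0.30, adjusted p = 9.46e-05), and was lower in DKO Dex+ cells (-1.19 ± 0.30, adjusted p = 0.00961). Dnd1, an RNA-binding factor of germ cell survival, was higher in DKO in both cultures (1.05 ± 0.16 and 1.61 ± 0.16, both passed). Prdm14, a regulator of naive pluripotency and of primordial germ cells, lay between 3.63 and 4.06 in all 8 arrays of the Dex- and Dex+ cells. Dppa5a, a gene of the same name series but of an unrelated KH-domain family, read 8.93 and 9.17 in DKO Dex- cells against 7.29 and 7.13 in WT (1.84 ± 0.14), and 12.51 and 12.59 in DKO Dex+ cells against 7.23 and 7.23 in WT (5.32 ± 0.14, adjusted p = 9.79e-12). In DKO its Dex+ arrays lay above its Dex- arrays, whereas those of Dppa2 and Dppa4 lay below. Dppa5a was also high in PE, at 13.92 and 13.88 in DKO and 14.08 and 13.99 in WT. Among 9 maternal effect genes, of which Dppa3 is a functional relative, 0 passed as higher in DKO in any state, and Ooep passed as lower in ES cells (-1.19 ± 0.18) and Zbed3 in Dex- cells (-1.12 ± 0.26). Uhrf1, the partner that Dppa3 restrains, read 12.29 and 12.32 in DKO ES cells against 12.12 and 12.06 in WT (0.22 ± 0.23), and passed as higher in DKO Dex+ cells (1.07 ± 0.23, adjusted p = 0.00383). In Flk1+ cells Uhrf1 read 11.73 and 12.14 in DKO against 11.08 and 11.21 in WT (0.79 ± 0.23), which did not pass.

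The pluripotency list gives the levels of other genes of ES cells beside the pair. From ES cells to PE, 15 of its genes passed as lower in each genotype (8.18% over all genes in DKO and 6.55% in WT). Fbxo15 and Dppa5a did not. Fbxo15 read 12.32 and 12.22 in DKO PE and 11.96 and 11.93 in WT PE. Of the 21 listed genes, 4 passed as higher and 1 as lower in DKO Dex- cells (3.51% and 2.34% over all genes). In DKO Dex+ cells 8 passed as higher and 0 as lower (4.81% and 4.83%). Lin28a was the lower one (-1.52 ± 0.35), and among the higher ones were Tdgf1 in Dex- cells (1.62 ± 0.38) and Fbxo15 in Dex+ cells (4.38 ± 0.34). Their mean on each array was 6.65 and 6.64 in DKO Dex- cells and 6.31 and 6.29 in WT, and 7.42 and 7.62 in DKO Dex+ cells and 6.32 and 6.51 in WT, against 11.2 to 11.7 in ES cells of both genotypes. Sox2 read 4.91 and 4.72 in DKO Dex- cells, against 4.60 and 5.61 in WT Dex- cells and 12.10 and 12.32 in DKO ES cells, and Nanog read 4.42 and 4.39, against 3.94 and 3.91 and 11.33 and 11.62. Pou5f1 read 4.99 and 5.77 in DKO Dex- cells, against 4.20 and 4.33 in WT (1.11 ± 0.23, passed) and 11.92 and 11.74 in DKO ES cells. Zfp42, also called Rex1, read 7.25 and 6.99 in DKO Dex- cells against 4.08 and 4.51 in WT (2.83 ± 0.44, adjusted p = 0.00064). Markers of other cells moved with the groups in Dex+ cells: 8 of the 12 primitive endoderm markers were higher in DKO, with means of 12.2 and 12.3 in DKO against 10.2 and 10.4 in WT, and 4 of 8 mural cell markers were lower, with means of 9.39 and 8.81 against 10.5 and 10.4. In Dex- cells 1 of the 12 and 2 of the 8 were higher in DKO. The part of the pluripotency genes and of these markers in the results for Dppa2 and Dppa4 was not tested.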

How the data were processed

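Expression was measured on Affymetrix MOE430v2 arrays from RNA labelled in 2 cycles from 50 ng. The deposited values are log2 signals that the authors made with RMA, which corrects background, normalizes quantiles and summarises probes. The version, and whether all 20 arrays were summarised together, are not given in the sources used here. The deposited table of scan information (other values) gave scan day and chip lot. Raw intensities were not used, and the number of arrays limits the precision.

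The members and gene lists were chosen with earlier results of these data known. Probe sets with 1 gene symbol in the platform annotation (34958) were kept, and for each of 18194 genes the brightest one, by its mean over all arrays, was taken. A model with 1 mean for each of the 10 groups was fitted with limma 3.58.1 in R 4.3.3 (10 residual and 4.54 prior degrees of freedom), with Benjamini-Hochberg adjustment, instead of the SAM test that the methods name. 19 comparisons were made, and 4 were added. The text names the 3 members, the 5 genes most correlated with each, the 3 nearest protein coding genes on each side in the mouse gene table of GRCm38.p6, and up to 6 genes of a list with the largest change; other list genes were chosen after their values were seen. The fit was tested on simulated data. The replicate numbers are not stated to pair arrays across genotypes. Alternatives were another probe set, quantile normalization, a filter, blocks of scan day or replicate, fits on fewer arrays and single arrays left out.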

Additional observations from a re-analysis of the deposited data

Results flagged for a closer look

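The DKO and WT difference itself passed as different between states for 2 of the 3 genes. The test of that difference, in the same model, was added after the values were known. Over all genes 4.53% passed it for Dex- against ES cells and 9.00% for Dex+ against ES cells. Against PE the shares were 4.01% and 6.80%. For Dppa2 the difference in Dex- cells exceeded the one in ES cells by 4.71 ± 0.88 log2 units (limma, adjusted p = 0.00494), and in Dex+ cells by 3.68 ± 0.88 (adjusted p = 0.0126). Against PE it was larger by 6.40 ± 0.88 in Dex- cells (adjusted p = 0.000452) and by 5.38 ± 0.88 in Dex+ cells (adjusted p = 0.00117). For Dppa4 the corresponding values against ES cells were 3.44 ± 0.82 in Dex- cells (adjusted p = 0.0232) and 2.75 ± 0.82 in Dex+ cells (adjusted p = 0.0426). The Dex- call was lost without 7 of its 8 arrays, each in turn, and the Dex+ call without any 1 of 8, on quantile normalization (adjusted p = 0.0501) and with an intensity trend (adjusted p = 0.0579). Against PE they were 4.26 ± 0.82 in Dex- cells (adjusted p = 0.00664) and 3.57 ± 0.82 in Dex+ cells (adjusted p = 0.0131), the second of which was lost without DKO PE replicate 2 (adjusted p = 0.0528) or DKO Dex+ replicate 1 (adjusted p = 0.0515). In each case both DKO arrays lay above both WT arrays in the mesoderm culture, and both DKO arrays lay below both WT arrays in PE. Groups of 2 arrays are too small for the test of a single far value within a group.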

How the results depend on the processing

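The values of the 3 genes were recomputed under the alternatives, 995 values in all for 69 results. Of these 905 kept their direction and side of the threshold, 34 passed newly, 26 no longer passed and 30 changed sign, and 35 results kept both under everything run. The higher Dppa2 and Dppa4 of DKO Dex- and Dex+ cells, and the lower level of all 3 genes in PE and in Flk1+ cells than in ES cells in both genotypes, were among these. For those falls from ES cells the scan-day block could not be fitted, since no other state shares the scan day of the ES arrays. For Dppa2 the Dex- difference ranged from 2.86 to 5.19 and the Dex+ difference from 1.69 to 3.89, for Dppa4 from 2.87 to 3.53 and from 2.35 to 2.68. The limits are 2 arrays per group, 1 clone per genotype and the unlike Flk1+ pairs. The cause of the changes below was not tested.

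On the other Dppa2 probe set, which also stands alone when cross-hybridising probe sets are left out, the PE difference was -1.55 and passed, the Dex+ against Dex- difference in WT was 0.31 and of the other sign (0.068 on the mean of both probe sets), and the genotype difference in the step from Flk1+ to Dex- was 2.00 and passed (2.53 on the mean). Quantile normalization a second time took the Dppa4 excess of Dex+ over ES cells to 2.72, which did not pass, and an intensity trend with a robust prior left it at 2.75 and the Dppa2 rise from Flk1+ to Dex- in DKO at 1.74, neither passing. With only the arrays of the groups compared, the differences in PE (-1.65 for Dppa2, -1.06 for Dppa4), between Dex+ and Dex- in DKO (-1.19 and -1.22) and in the PE step of Dppa2 (-1.70) passed. With scan day as a block, the Dppa2 rise from Flk1+ to Dex- in DKO was 1.63 and did not pass, Dppa3 in Dex+ against Dex- in WT (-0.019) and Dppa4 in Dex+ against PE in DKO (-0.11) changed sign, and the Dppa4 genotype difference in the step from Flk1+ to Dex- (2.94) passed. That value also passed with the replicate block (2.94, adjusted p = 0.0431) and with the replicate block within each state, chosen after seeing the data (2.94, adjusted p = 0.0264). The block within each state also took the Dppa3 genotype difference in the PE step (-1.24) past the threshold. The replicate block changed no other call of the 3 genes. Deviations of same-numbered DKO and WT arrays correlated at 0.18 to 0.36, over 2 pairs per state. Without both parental-line Flk1+ arrays the DKO and WT difference in Flk1+ cells was 3.72 for Dppa2 and 1.59 for Dppa4. Its excess over ES cells was 3.68 and 1.83. The genotype difference in the step to Dex- was 1.03 for Dppa2 and 1.60 for Dppa4. The WT step to Dex- changed sign (0.10 for Dppa2, 0.047 for Dppa3 and 0.63 for Dppa4).

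With single arrays left out, the following differences changed a call or sign. DKO against WT ran from -0.052 to 0.14 for Dppa2 and 0.55 to 1.35 for Dppa3 in ES cells, from 0.27 to 3.11 for Dppa2, -0.057 to 0.22 for Dppa3 and -1.21 to 1.72 for Dppa4 in Flk1+ cells, and for Dppa3 from -0.29 to 0.23 in Dex- cells and from -0.0020 to 0.098 in Dex+ cells. Flk1+ to Dex- in WT ran from -2.74 to 0.10 for Dppa2, -0.35 to 0.17 for Dppa3 and -2.30 to 0.63 for Dppa4, and in DKO from 1.13 to 2.34 for Dppa2 and 1.97 to 2.23 for Dppa4. Dex+ against Dex- in WT ran from -0.61 to 0.27 for Dppa2 and -0.23 to 0.29 for Dppa3, and Dex+ against PE in DKO from -0.56 to 0.030 for Dppa2 and -0.093 to 0.24 for Dppa4. The genotype difference of the PE step of Dppa3 ran from -1.63 to -0.84, of the Flk1+ step from 0.23 to 3.07 for Dppa2 and -0.97 to 1.96 for Dppa4, of the step to Dex- from 1.64 to 4.48 for Dppa2, -0.37 to 0.15 for Dppa3 and 1.48 to 4.41 for Dppa4, and of the step from Dex- to Dex+ from -0.18 to 0.34 for Dppa3. The excess of Dex- over ES cells ran from -1.38 to -0.58 for Dppa3 and 3.11 to 3.77 for Dppa4, of Dex+ over ES cells from -1.30 to -0.50 for Dppa3 and 2.57 to 2.94 for Dppa4, of Dex- over PE from -0.0027 to 0.52 for Dppa3, and of Dex+ over PE from 3.41 to 3.74 for Dppa4.

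Counts of all genes that passed moved by over 1.5 times mainly where Flk1+ cells enter. With only the groups compared, DKO against WT in Flk1+ cells gave 0 genes instead of 127, its excess over ES cells 1 instead of 144, the step to Dex- 129 instead of 529, the PE step 525 instead of 247 and Dex+ against Dex- in WT 156 instead of 291. The replicate block within each state gave 211, 251 and 809 genes for the first 3, and without the parental arrays the first 2 were 551 and 316. With single arrays left out the counts ran from 126 to 240 for DKO against WT in ES cells (252 in full), 223 to 269 in PE (356) and 97 to 394 in Flk1+ cells, 161 to 312 for Dex+ against Dex- in WT, 132 to 204 and 59 to 414 for the PE and Flk1+ interactions, and 525 to 712 and 457 to 626 for Dex- over ES cells (825) and over PE (729). Of the 5 genes most like Dppa2, Dppa3 and Dppa4, 2, 0 and 4 were also among the 5 by Spearman rho, and 4, 3 and 2 by the 10 group means.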
